A study of Mus musculus with 6 samples.

Results

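The genes described here encode the centromere, the kinetochore and the spindle checkpoint. They comprise the 21 genes with a Cenp symbol and 20 named subunits and kinases, together 41 of the 23185 named genes on the array. All 41 were measured. The rule that chose them used names, from current symbols assigned through the Entrez Gene number of each probe set. It was set with earlier results of these data known. The study hybridised RNA to 6 Mouse Gene 2.0 ST arrays (Affymetrix), 3 for WT and 3 for Merit40-/- mice. The mice of both genotypes were young adults and received no treatment. Every array holds hematopoietic stem cells (HSCs) taken fresh from bone marrow and sorted in a double pass as CD150+CD48-LSK, where LSK stands for cells without lineage markers that carry Sca-1 and c-Kit. Merit40 is encoded by Babam1, a subunit of deubiquitinase complexes that act on lysine-63-linked ubiquitin chains. The labels number biological replicates 1 to 3 of each genotype and give neither the number of mice per array nor the kind of deletion. The p-values therefore measure only the spread between these arrays.

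A kinetochore is built on a centromere that is marked by CENP-A, a histone H3 variant. The constitutive centromere network, most of whose subunits carry Cenp names, sits on that nucleosome throughout the cell cycle. In mitosis it recruits the KMN network of Knl1, the Mis12 complex and the Ndc80 complex, which binds microtubules. Unattached kinetochores load Bub and Mad proteins and hold back anaphase, and the chromosomal passenger complex around Aurora B corrects faulty attachments. Many of these genes are transcribed mainly in G2 and mitosis, and most HSCs in young adult marrow rest outside the cell cycle, so their transcripts in sorted HSCs are often read as a mark of dividing cells. In RNA from many cells, fewer dividing cells and less transcript per cell cannot be told apart.

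The deleted gene matched the labels. Babam1 read 7.91, 8.04 and 8.05 (log2) in WT and 4.29, 3.87 and 4.01 in Merit40-/-, a fall of 3.94 (SE 0.14, adjusted p = 5.04e-05 in limma). An exact 2-sided permutation test of Babam1 over the 6 arrays gave p = 0.1. That is the smallest p this test can give here, so it can call no gene at 0.05. Babam1 was the only gene past an adjusted p of 0.05 in limma, or 0.00431% of 23185 genes. Array medians lay between 4.91 and 4.96, and Pearson's r between arrays, across genes that are not independent replicates, between 0.984 and 0.988. All 12 measured HSC markers, of 14 fixed, lay above the median level of all genes (4.93) on every array. This level does not single out HSCs. Above it also lay 4 of 7 negative markers of the sort on every array and 12 to 13 of 14 granulocyte and monocyte markers. Of the megakaryocyte and platelet markers, 10 to 11 of 13 did. One array of Merit40-/-, replicate 1, carried skeletal muscle genes: 13 of 15 lay above that median, against 6 to 8 on the other arrays, and their mean level was 7.89 against 4.81 to 5.01. Another, Merit40-/- replicate 3, carried osteoclast genes: 5 of 9 lay above the median, against 2 to 3 elsewhere, at a mean level of 5.58 against 4.36 to 4.52. List counts and medians are given with and without these 2 arrays.

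Centromere and kinetochore genes read mostly lower in Merit40-/- HSCs, by small amounts that no gene's replicates separated past the threshold. Of 41 genes, 33 were lower and 8 higher in the Merit40-/- mean, where 48.5% of all genes were lower. The median difference was -0.17 on the log2 scale, against 0.01 over all genes. None passed in limma (0 of 41, adjusted p 0.999 to 1.0, against 0.00431% of all genes). At an unadjusted p under 0.05, 6 of 41 were lower and 0 higher, where 1.96% of all genes were lower and 2.26% higher. The 6 were Cenpe, Cenpi, Cenpl, Cenpn, Cenpo and Cdca8. Counted over all 41 genes in either direction, the number under that cut was 1, 2 and 6 without WT replicates 1, 2 and 3. It was 3, 8 and 2 without Merit40-/- replicates 1, 2 and 3. The genes counted were not always from the 6 named. They included Spc24, higher by 0.43 without Merit40-/- replicate 1, and Dsn1, higher by 0.46 without Merit40-/- replicate 3. With replicate 2 as the only Merit40-/- array, the differences of the 6 named genes were -0.13 for Cenpe, -0.15 for Cenpi, -0.39 for Cenpl, -0.63 for Cenpn, -0.27 for Cenpo and -0.12 for Cdca8. Single differences ran from -0.54 for Cenpw to 0.26 for Mis12. The 95% interval stayed inside 2-fold up and down for 40 of the 41 genes, as for 96.4% of all genes, and the exception was Cenpw. The median interval of the members was ±0.38.

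**Figure D1:**
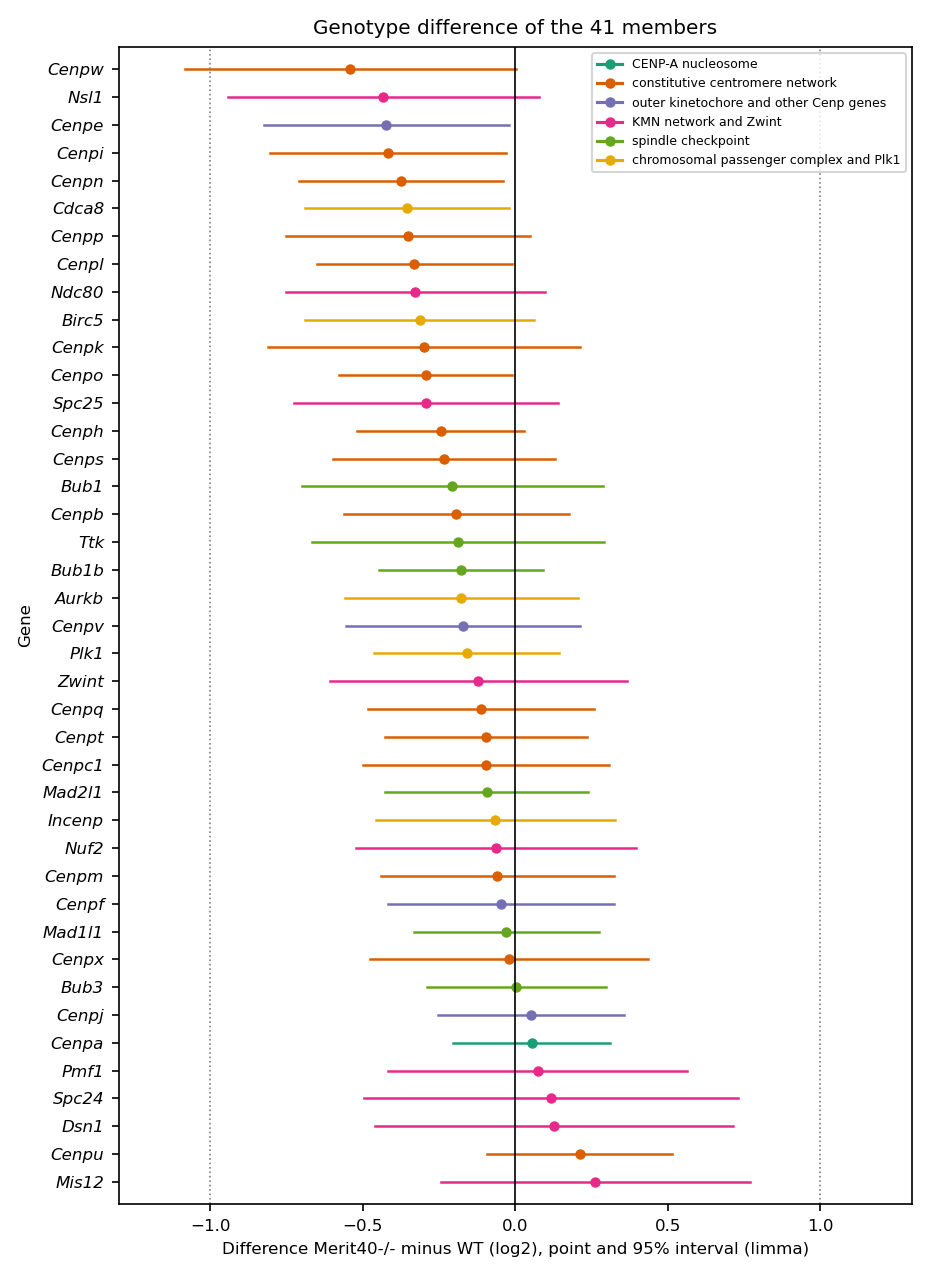
Each point is the difference Merit40-/- minus WT of 1 gene in log2 units, with its 95% interval from limma (3 arrays per genotype), coloured by role; dotted lines mark 2-fold. Most points lie left of 0, 33 of 41, and 6 intervals exclude 0 before adjustment over all genes.

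The lower values lay on Merit40-/- replicates 1 and 3, and the median member of replicate 2 lay at the WT mean. Relative to the WT mean, 36 of 41 genes were lower on replicate 1 (50.8% of all genes), 21 on replicate 2 (49.0%) and 31 on replicate 3 (48.6%). The median gene differed from the WT mean by -0.28, -0.0041 and -0.28 on these arrays. WT arrays also differed among themselves. Set against the mean of the other WT arrays, 16, 18 and 28 of 41 genes were lower on WT replicates 1, 2 and 3. Over all genes these shares were 51.0%, 51.5% and 48.0%. The median member differed from that mean by 0.05, 0.06 and -0.13. Merit40-/- replicate 1 gave the lowest of the 6 values for 16 genes and the highest for 0, and Merit40-/- replicate 3 the lowest for 14 and the highest for 5. Merit40-/- replicate 2 gave the lowest value for 3 genes and the highest for 11. WT replicates 1, 2 and 3 gave the lowest for 2, 0 and 6 and the highest for 8, 11 and 6. Over all genes each array held 15.4% to 17.8% of the lowest values and 14.6% to 19.2% of the highest. Merit40-/- replicates 1 and 3 were together the lowest pair of the 6 arrays for 16 genes (39.0%), a pattern found in 6.24% of all genes. This pair was picked from the same values, so the 2 shares are a description and not a test. With replicate 2 as the only Merit40-/- array, 21 of 41 genes were lower and the median difference was -0.0041. Without replicate 1 alone it was -0.0887 (34 of 41 lower), and without replicate 3 alone -0.145 (29 of 41 lower). These are the arrays with muscle and osteoclast genes, and the part of those cells in the lower values was not tested.

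**Figure D2:**
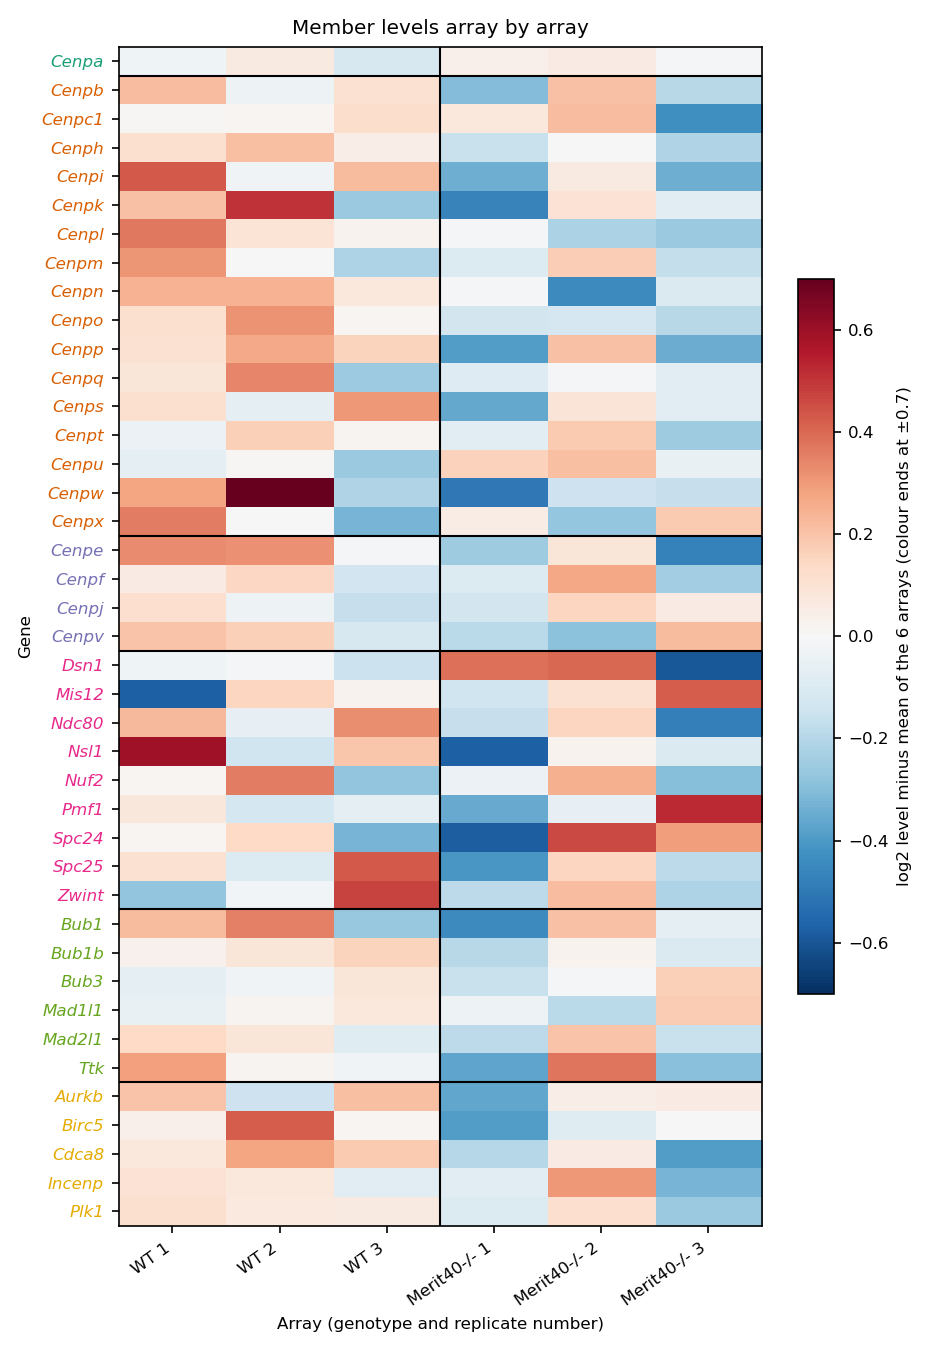
Each row is 1 of the 41 genes and each column 1 array; colour is the log2 level minus the gene's mean over the 6 arrays, and gene names are coloured and ruled off by role in the order CENP-A, constitutive centromere network, outer kinetochore and other Cenp genes, KMN network with Zwint, spindle checkpoint, and passenger complex with Plk1. Merit40-/- replicates 1 and 3 are mostly blue, with the lowest value of 16 and 14 genes, and Merit40-/- replicate 2 is mostly red or pale.

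Replicates 1 and 3 were each low in many members, and 2 members lay at least 0.5 below the WT mean on both. On replicate 1, 9 genes lay at least 0.5 below the WT mean, where 2.95% of all genes did: Birc5, Bub1, Cenpi, Cenpk, Cenpp, Cenpw, Nsl1, Spc24 and Spc25. On replicate 3 there were 6, where 3.54% of all genes did: Cdca8, Cenpe, Cenpi, Cenpp, Dsn1 and Ndc80. Cenpi and Cenpp, subunits of the constitutive centromere network, lay that low on both. Of the 9 genes on replicate 1, 8 were below the WT mean on replicate 3, where 31 of all 41 members were. Of the 6 on replicate 3, 5 were below it on replicate 1, where 36 of the 41 were. These shares were near those of all members. On replicate 2 only Cenpn lay that low (3.7% of all genes). On WT replicates 1, 2 and 3, 2, 1 and 4 members lay at least 0.5 below the mean of the other WT arrays. Over all genes these shares were 3.38%, 3.36% and 4.14%. At least 0.5 above the WT mean lay Spc24 on Merit40-/- replicate 2 (3.93% of all genes) and Mis12 and Pmf1 on Merit40-/- replicate 3 (4.03%). On Merit40-/- replicate 1, 0 members did (3.31%). The spread among Merit40-/- arrays, with a median SD of 0.23 over the members, was wider than among WT arrays, at 0.17, while genes above the median level had 0.19 and 0.17.

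Short elements that the choice by name did not use were more frequent in the promoters of these genes than over all genes, though none was in all of them. RefSeq windows of 300 bases (GRCm38.p6), from 250 before to 50 after a transcription start, were found for 37 of the 41 genes. The cell cycle homology region (CHR), bound by the DREAM and B-MYB complexes, was searched as TTTGAA or TTCGAA on both strands. The CCAAT box, bound by NF-Y, was searched as CCAAT and the E2F site as TTCCCGC or TTGGCGC, also on both strands. Of the 37 genes, 15 held a CHR word (40.5%), 24 a CCAAT box (64.9%) and 10 an E2F word (27.0%), where 19.5%, 41.9% and 10.0% of the 17452 measured genes with a window did. Counted by window in place of gene, the shares were 38.1%, 66.7% and 23.8% of 42 member windows and 19.2%, 37.4% and 6.81% of all 32851 windows. CHR and CCAAT box occurred together in 14 genes (37.8%) and in 7.95% of measured genes. Member windows were richer in G and C, with a median of 59.0% against 52.7%, and a match is a description of letters, not a bound site. The following 30-base stretches, on the gene's strand with motif letters in capitals and bases counted from 1 at the start site, show the CHR in members of different roles, since this element is known from promoters of G2/M genes.
Cenpw (chr10:30200548-30200577, minus strand, bases -37 to -8): tccggcggCCAATTCAAAtcgaccactcgg
Cenpa (chr5:30666890-30666919, plus strand, bases 5 to 34): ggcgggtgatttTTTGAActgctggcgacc
Cenpn (chr8:116921719-116921748, plus strand, bases -21 to 9): gccATTGGcggcTTCAAAagcacctcggcg
Bub1 (chr2:127831828-127831857, minus strand, bases 3 to 32): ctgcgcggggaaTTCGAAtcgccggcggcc
Ttk (chr9:83834684-83834713, plus strand, bases -5 to 25): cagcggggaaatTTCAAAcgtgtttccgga
Plk1 (chr7:122159453-122159482, plus strand, bases 19 to 48): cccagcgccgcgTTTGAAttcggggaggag
Spc25 (chr2:69206172-69206201, minus strand, bases 13 to 42): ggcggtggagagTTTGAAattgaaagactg
In Cenpw the CHR shares 1 base with a CCAAT box. In 9 of the 15 genes a CHR word began after the start site, within the 50 bases searched there.

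Genes with and without a CHR had medians of the same sign on every Merit40-/- array. The 15 genes with one had a median difference of -0.189 (12 lower) and the 22 without one of -0.118 (18 lower). Relative to the mean of the 6 arrays, their medians were -0.161 and -0.146 on Merit40-/- replicate 1 and -0.165 and -0.174 on replicate 3. On Merit40-/- replicate 2 they were 0.0555 and 0.104. The median differences were -0.127 and -0.0927 without Merit40-/- replicate 1, -0.169 and -0.123 without replicate 3, and -0.0041 and 0.0004 with replicate 2 alone. These values are descriptions without a test. The next stretches lie before the start site and show the arrangement of CCAAT boxes and E2F words in Bub1, Spc25 and Cenpl.
Bub1 (chr2:127831860-127831959, minus strand, bases -100 to -1): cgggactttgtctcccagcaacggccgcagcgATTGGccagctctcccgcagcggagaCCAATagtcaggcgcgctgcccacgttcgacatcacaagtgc
Spc25 (chr2:69206214-69206313, minus strand, bases -100 to -1): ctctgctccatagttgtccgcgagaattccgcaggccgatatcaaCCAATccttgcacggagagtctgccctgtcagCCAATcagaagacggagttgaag
Cenpl (chr1:161070669-161070766, plus strand, bases -98 to -1): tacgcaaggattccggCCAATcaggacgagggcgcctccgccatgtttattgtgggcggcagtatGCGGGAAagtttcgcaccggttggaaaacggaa
Spc25 and Bub1 each held a pair of CCAAT boxes here, and Cenpl a CCAAT box with an E2F word closer to the start.

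CENP-A itself was the steadiest of the 41 genes. Cenpa, the centromeric histone H3 variant, read 8.16, 8.25 and 8.08 in WT and 8.23, 8.25 and 8.18 in Merit40-/-. The genotypes overlapped, and its range over the 6 arrays was 0.17, where the members had a median range of 0.66 and genes above the median level 0.54. Its difference was 0.05 (SE 0.11). The promoter of Cenpa holds a CHR, as shown above, so the steadiest and the most variable member, Cenpw, both held one.

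The list for the constitutive centromere network held 15 of the 33 lower genes. It also counts Cenpb, which binds centromeric repeats and is not a subunit of the network. Of the 16 genes in this list, 15 were lower and 1 higher, with a median difference of -0.24, and 0 passed in limma. Without Merit40-/- replicate 1 the median was -0.15 (15 lower), without replicate 3 it was -0.23 (12 lower), and with replicate 2 alone -0.06 (10 lower). For Cenph, Cenpl, Cenpn and Cenpo every Merit40-/- array read below every WT array. Over all 41 genes this held for 7, all lower in Merit40-/-, where 4.22% of all genes were lower and 4.84% higher without overlap. That count was 7, 14 and 12 without WT replicates 1, 2 and 3, and 8, 19 and 10 without Merit40-/- replicates 1, 2 and 3. The share of all genes without overlap, in either direction, was 16.9% without WT replicate 1 and 19.0% to 19.6% in the other 5 cases, so without WT replicate 1 or Merit40-/- replicate 1 the members lay near the share of all genes.

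Cenpo, of the Cenpo-Cenpp-Cenpq-Cenpu subcomplex, read 7.45, 7.66 and 7.36 in WT and 7.21, 7.22 and 7.15 in Merit40-/-. Its 3 Merit40-/- arrays lay close together and below every WT array. The levels were 7.49 ± 0.15 and 7.20 ± 0.04 (SD, n = 3 each), and the difference was -0.29 (SE 0.12, adjusted p = 0.999 in limma). Its partners had other patterns. Cenpp read 6.80, 6.96 and 6.85 in WT and 6.30, 6.90 and 6.35 in Merit40-/-, so that replicate 2 alone fell inside the WT range. Cenpu was the only gene of the network list that was higher, at 6.76, 6.83 and 6.57 against 6.99, 7.04 and 6.77. Its genotypes overlapped (difference 0.21, SE 0.13). Cenpq differed by -0.11 (SE 0.16).

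Cenpn and Cenpl belong to the subunits that bridge CENP-A and the rest of the network. Cenpn read 6.96, 6.96 and 6.79 in WT and 6.70, 6.27 and 6.61 in Merit40-/-. Its lowest reading lay on replicate 2, where no other member was 0.5 or more below the WT mean, and it had the smallest unadjusted p of the members (0.0326 in limma, difference -0.37, SE 0.15). Cenpl read 7.37, 7.10 and 7.03 against 6.99, 6.78 and 6.74. Every Merit40-/- array lay below every WT array, though replicate 1 missed the lowest WT array by little (difference -0.33, SE 0.14).

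Cenpi, Cenph, Cenpk and Cenpm form a further subcomplex. Cenpi read 6.78, 6.33 and 6.58 in WT and 6.01, 6.41 and 6.01 in Merit40-/-. Replicates 1 and 3 were alike and low, and replicate 2 lay inside the WT range (difference -0.42, SE 0.17). Cenph read 7.56, 7.66 and 7.49 against 7.30, 7.45 and 7.24, without overlap (difference -0.24, SE 0.12). Cenpk read 7.39, 7.69 and 6.92 against 6.71, 7.28 and 7.10, with overlap and a spread within WT (SD 0.39) larger than its difference (-0.30, SE 0.22), which was -0.14 without Merit40-/- replicate 1 and -0.12 without WT replicate 2. Cenpm differed by -0.06 (SE 0.17).

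Cenpw had the largest difference and the widest range of the 41 genes, 1.25 log2 units. With Cenpt, Cenps and Cenpx it forms a histone-fold complex that contacts DNA. It read 7.81, 8.28 and 7.32 in WT and 7.03, 7.39 and 7.37 in Merit40-/-. The groups overlapped, because WT replicate 3 lay below 2 of the Merit40-/- arrays, and WT replicate 2 stood above all others. The levels were 7.81 ± 0.48 and 7.26 ± 0.20 (SD, n = 3 each), the difference -0.54 (SE 0.24, adjusted p = 0.999 in limma), and it was -0.30 without WT replicate 2. Its partners Cenpt at -0.10 (SE 0.14), Cenps at -0.23 (SE 0.16) and Cenpx at -0.02 (SE 0.20) differed less. Cenpc1, the central scaffold of the network, differed by -0.10 (SE 0.18), with 1 low array, Merit40-/- replicate 3 at 7.70 against 8.14 to 8.35 elsewhere. Cenpb, which binds a motif in centromeric repeats, differed by -0.19 (SE 0.16).

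Among the 4 Cenp genes listed apart from Cenpa and the network list, 3 were lower, with a median difference of -0.11, and 0 passed in limma. The median was -0.06 without Merit40-/- replicate 1, -0.13 without replicate 3 and 0.02 with replicate 2 alone. The kinesin Cenpe moves chromosomes to the spindle equator and read 7.48, 7.47 and 7.13 in WT and 6.90, 7.23 and 6.68 in Merit40-/-. Only replicate 2 reached the WT range, and the difference was -0.42 (SE 0.17, adjusted p = 0.999 in limma). Cenpf, a large protein of the outer kinetochore, differed by -0.05 (SE 0.16) and its lowest and highest values both came from Merit40-/- arrays, replicates 3 and 2. Cenpj, a centriole assembly gene in spite of its name, read 6.69, 6.53 and 6.41 against 6.44, 6.72 and 6.62 (difference 0.05, SE 0.13). Cenpv, a centromere-associated protein, differed by -0.17 (SE 0.17) and was lowest on Merit40-/- replicate 2, unlike most members.

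The KMN genes showed no common direction, and 4 of the 6 members with the widest range over the arrays were among them: Nsl1, Spc24, Dsn1 and Mis12. Of 9 genes including Zwint, 5 were lower and 4 higher, with a median difference of -0.06, and 0 passed in limma. The median was 0.03 without WT replicate 2, and -0.06 without Merit40-/- replicate 1, -0.04 without replicate 3 and 0.16 with replicate 2 alone. In the microtubule-binding Ndc80 complex, Ndc80 read 7.88, 7.60 and 7.98 in WT and 7.49, 7.80 and 7.17 in Merit40-/- (difference -0.33, SE 0.18), and it differed by -0.17 without replicate 3. Spc25 read 7.02, 6.82 and 7.34 against 6.51, 7.07 and 6.73 (difference -0.29, SE 0.19), and by -0.16 without replicate 1. Nuf2, the partner of Ndc80, differed by -0.06 (SE 0.20). Spc24, the partner of Spc25, read 7.85, 7.98 and 7.52 in WT and 7.27, 8.30 and 8.13 in Merit40-/-, so the Merit40-/- arrays held both its lowest and its highest values (difference 0.12, SE 0.27). All 4 subunits of this complex read lower on replicate 1 than on replicate 2.

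The Mis12 complex links the Ndc80 complex to the centromere, and the differences of its 4 genes ran from -0.43 to 0.26. Nsl1 read 6.18, 5.45 and 5.78 in WT and 5.01, 5.61 and 5.48 in Merit40-/- (difference -0.43, SE 0.22). The low value was replicate 1, without which the difference was -0.25, and both other arrays lay inside the WT range. Dsn1 read 6.89, 6.92 and 6.77 in WT and 7.31, 7.32 and 6.33 in Merit40-/-, with 2 arrays above and 1 below all WT arrays (difference 0.13, SE 0.26). Mis12 read 6.41, 7.13 and 7.01 against 6.85, 7.09 and 7.41, the highest difference of the 41 genes at 0.26 (SE 0.22). WT replicate 1 alone stood low there, and the difference was 0.04 without it. Pmf1 read 8.30, 8.10 and 8.15 against 7.86, 8.16 and 8.74 (difference 0.07, SE 0.21), and differed by -0.17 without replicate 3. Zwint, which helps to recruit a checkpoint complex, differed by -0.12 (SE 0.21). The following sequences are those of the most variable members with a RefSeq window that are not shown above, the motifs again in capitals.
Mis12 (chr11:71019544-71019573, plus strand, bases -67 to -38): acccacggctagCCAATcaggagtgcgatc
Cenpk (chr13:104229358-104229387, plus strand, bases -30 to -1): ctgcgtgttacgTTCCCGCgtctccacctg
Dsn1 (chr2:157007076-157007325, minus strand, bases -250 to -1): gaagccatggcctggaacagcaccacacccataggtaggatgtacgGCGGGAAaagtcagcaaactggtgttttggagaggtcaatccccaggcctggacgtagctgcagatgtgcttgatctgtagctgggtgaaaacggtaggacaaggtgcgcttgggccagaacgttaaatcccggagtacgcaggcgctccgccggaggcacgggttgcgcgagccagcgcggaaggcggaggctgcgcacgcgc
The window of Dsn1 held an E2F word far from the start and neither a CHR nor a CCAAT box, that of Mis12 held only CCAAT boxes, and the Cenpk stretch lies before the most downstream of 3 annotated starts.

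**Figure D3:**
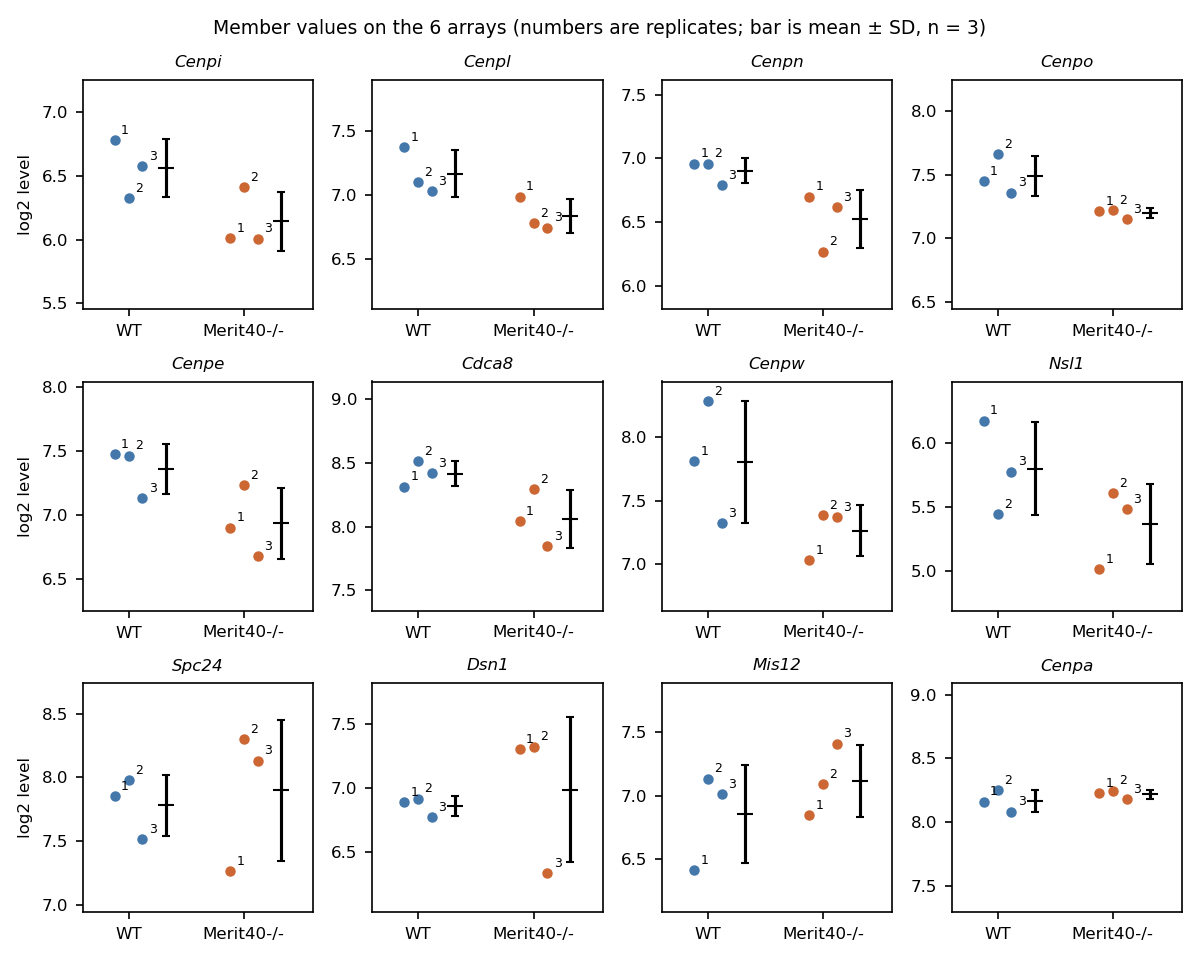
Dots give the log2 level on each array with its replicate number, blue for WT and orange for Merit40-/-; the bar beside them is the mean ± SD (n = 3), and every panel spans the same 1.8 log2 units around the gene's mean. Cenpl, Cenpn, Cenpo and Cdca8 do not overlap between genotypes, Spc24 and Dsn1 have their lowest and highest values among the Merit40-/- arrays, and Cenpa barely varies.

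The differences of the spindle checkpoint genes ran from -0.21 to 0.0037. Of 6 genes, 5 were lower, with a median difference of -0.14, and 0 passed in limma. The median was -0.03 without Merit40-/- replicate 1, -0.11 without replicate 3 and 0.05 with replicate 2 alone. Bub1, the kinase that scaffolds the checkpoint, read 7.43, 7.57 and 6.95 in WT and 6.76, 7.42 and 7.15 in Merit40-/- (difference -0.21, SE 0.21). WT replicate 3 lay below 2 Merit40-/- arrays. The difference was -0.03 without Merit40-/- replicate 1 and -0.39 without WT replicate 3. Bub1b, which encodes BubR1 of the mitotic checkpoint complex, read 7.42, 7.48 and 7.55 against 7.20, 7.42 and 7.29, with replicate 2 just below the lowest WT array (difference -0.18, SE 0.12). Ttk, the kinase Mps1 that starts checkpoint signalling, read 7.54, 7.27 and 7.23 against 6.89, 7.63 and 6.96 (difference -0.19, SE 0.21), and differed by -0.05 without replicate 1 and -0.09 without replicate 3. Bub3, which also works outside mitosis, read 8.52, 8.56 and 8.67 against 8.43, 8.58 and 8.75. Its groups overlapped and its difference was 0.0037 (SE 0.13). Mad1l1 and Mad2l1, the Mad1 and Mad2 pair, differed by -0.03 (SE 0.13) and -0.09 (SE 0.14). All 6 genes read below their 6-array mean on Merit40-/- replicate 1, and 5 had their lowest value there.

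All 5 genes of the chromosomal passenger complex and Plk1 were lower, with a median difference of -0.18, and 0 passed in limma. The median was -0.15 without Merit40-/- replicate 1, -0.25 without replicate 3 and -0.04 with replicate 2 alone, where 3 were lower. Cdca8, which encodes borealin, read 8.31, 8.52 and 8.42 in WT and 8.04, 8.29 and 7.85 in Merit40-/-, without overlap. The difference was -0.36 (SE 0.15, adjusted p = 0.999 in limma). Birc5, which encodes survivin, read 8.11, 8.49 and 8.09 against 7.68, 7.99 and 8.07, with replicate 3 just below the lowest WT array (difference -0.31, SE 0.16). Aurkb, the kinase of the complex, read 8.32, 7.97 and 8.33 against 7.75, 8.17 and 8.18 and overlapped (difference -0.18, SE 0.17), with a difference of -0.04 without replicate 1. Incenp, its scaffold, was the member of this list closest to 0: it read 7.41, 7.38 and 7.23 against 7.23, 7.61 and 6.98 (difference -0.07, SE 0.17), and it differed by 0.08 without Merit40-/- replicate 3. Plk1, the mitotic kinase that builds and monitors kinetochores, read 7.52, 7.48 and 7.47 against 7.31, 7.53 and 7.15. Its WT arrays lay within 0.05 of each other and replicate 2 above all of them (difference -0.16, SE 0.13), and the difference was -0.07 without replicate 3.

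G2/M genes were low on the same arrays as the members, and replication genes only on Merit40-/- replicate 1. In a list of 28 further centromere, kinetochore and checkpoint genes measured, of 29, 20 were lower, with a median difference of -0.11 and 0 past the adjusted threshold. The kinesin Kif18a, which dampens chromosome movement, was lowest at -0.51 (SE 0.23) and Clasp2, which stabilises microtubules, highest at 0.23 (SE 0.11). Relative to the 6-array mean, the median gene of this list stood at 0.11, 0.18 and -0.14 on WT replicates 1, 2 and 3 and at -0.11, 0.08 and -0.15 on Merit40-/- replicates 1, 2 and 3, so a WT array was as low as the low Merit40-/- arrays. The median difference was -0.09 without Merit40-/- replicate 1, -0.16 without replicate 3, -0.21 without WT replicate 3 and 0.04 with Merit40-/- replicate 2 alone. Of 19 measured G2/M genes outside the kinetochore, of 20, 18 were lower (median -0.24, 0 past the threshold), from Dlgap5 of the spindle at -0.48 (SE 0.25) to Racgap1 of cytokinesis at 0.09 (SE 0.17). Relative to the 6-array mean the median G2/M gene stood at -0.22, 0.20 and -0.31 on Merit40-/- replicates 1, 2 and 3, and the median member at -0.16, 0.10 and -0.16. The median G2/M difference was -0.19 without replicate 1, -0.11 without replicate 3 and 0.03 with replicate 2 alone. Of the 18 DNA replication and G1/S genes, 14 were lower (median -0.15, 0 past the threshold), from Cdc45 of the replicative helicase at -0.46 to the licensing factor Cdt1 at 0.20, and the median gene stood at -0.21, -0.01 and 0.15. Without replicate 1 their median difference was 0.03 (8 lower), and without replicate 3 it was -0.22 (16 lower). Thus all 18 lay below their mean on replicate 1, and 14 of 18 above it on replicate 3, where 31 of the 41 members lay below it.

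**Figure D4:**
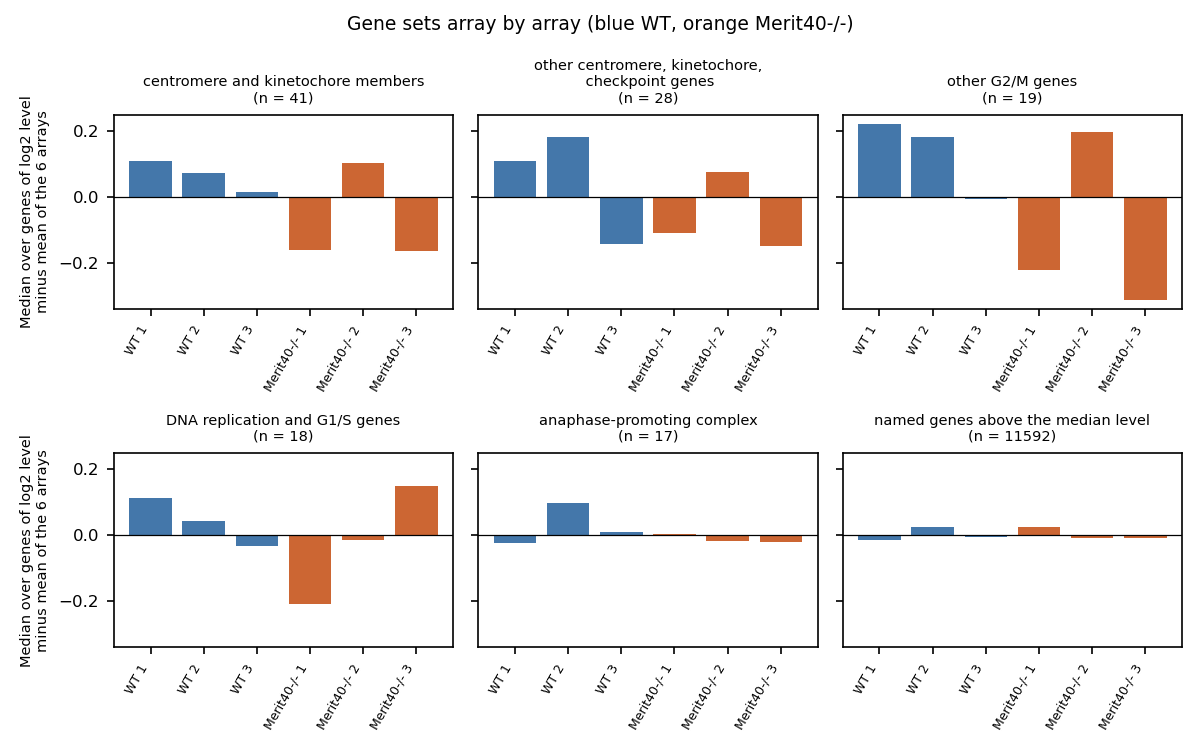
Bars give, for each array, the median over the genes of a list of the log2 level minus the gene's mean over the 6 arrays, blue for WT and orange for Merit40-/-. Members, further kinetochore genes and G2/M genes are low on Merit40-/- replicates 1 and 3, the further kinetochore genes also on WT replicate 3 (-0.14), replication and G1/S genes on replicate 1 only, and genes above the median level stay near 0.

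The anaphase-promoting complex, the target of the checkpoint, showed neither pattern. Of its 17 genes, 11 were lower, with a median difference of -0.03 and 0 past the threshold, from Anapc15 at -0.37 (SE 0.37) to Anapc10 at 0.31 (SE 0.18). Of 13 regulators of cell cycle transcription, 8 were lower (median -0.13, 0 past the threshold), with the repressor E2f4 lowest at -0.50 (SE 0.18) and Rbl2, the pocket protein p130 of the DREAM complex, highest at 0.28 (SE 0.12). The median of the regulators was -0.06 without Merit40-/- replicate 1 or replicate 3, and 0.09 with replicate 2 alone. E2f4 read 9.24, 9.39 and 9.05 in WT and 9.05, 8.44 and 8.70 in Merit40-/-, and Rbl2 7.99, 8.11 and 8.25 against 8.44, 8.43 and 8.32. Neither overlapped between genotypes, E2f4 by less than 0.01 on replicate 1, and both had replicate 2 outside the WT range.

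Markers of other cell types also moved over the arrays. The 14 measured erythroid markers, of 18, had mean levels of 6.88, 6.41 and 6.25 on WT replicates 1, 2 and 3 and of 6.16, 6.45 and 6.16 on Merit40-/- replicates 1, 2 and 3. The means were lowest on Merit40-/- replicates 1 and 3, where the kinetochore genes were also low, and highest on WT replicate 1. WT replicate 3 was about as low. Relative to the 6-array mean, the median marker stood at -0.10 there and at -0.08 and -0.07 on Merit40-/- replicates 1 and 3. Of the 14 markers, 10 to 14 lay above the median of all genes. The 12 HSC markers had means of 8.57, 8.71 and 8.81 in WT and 8.94, 8.74 and 8.68 in Merit40-/-, highest on the array with the muscle genes. Other lists did not follow the kinetochore genes. Granulocyte and monocyte markers had means of 8.24, 8.05 and 7.91 in WT and 8.28, 8.40 and 7.83 in Merit40-/-, low on replicate 3 but not on replicate 1. Megakaryocyte markers had 7.49, 7.52 and 7.36 in WT and 7.16, 7.22 and 7.27 in Merit40-/-, low on replicate 2 as well. Lymphoid markers ranged from 4.62 to 4.99 in WT and from 4.77 to 4.90 in Merit40-/-, with 3 to 4 of 11 above the median of all genes. The 7 measured negative markers of the sort ranged from 5.03 to 5.21 in WT and from 5.14 to 5.50 in Merit40-/-. The part of these cell types in the values of the kinetochore genes was not tested.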

How the data were processed

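The authors deposited 1 log2 value for each probe set on each array. RMA and affy are named in the submitters' processing notes; their versions, the chip definition and the build are not given here. As usually run, RMA brings all arrays to 1 intensity distribution, so overall differences in RNA yield are lost. Levels of different genes are therefore not compared as transcript amounts. Per the labels, 50 ng of total RNA was amplified. Of 25206 probe sets, 23185 had 1 gene, 0 several, and 2021 were unnamed here. All were fitted without a filter in R 4.3.3 with limma 3.58.1: a linear model of genotype alone, moderated by eBayes, 2-sided, adjusted by Benjamini-Hochberg over 23185 genes at a threshold of 0.05. Differences are Merit40-/- minus WT, with limma's moderated SE. Lists are described by counts and medians beside those of all genes. The members and lists were chosen with earlier results of these data known. Genes given with all 6 values are those with an unadjusted p under 0.05, the highest and lowest of each role list and the 6 with the widest range, with further ones, and the sequences printed, chosen after their values were seen. Tested on simulated data on 23185 genes, the fit called 19.4% of 62 genes changed by 0.58, 83.1% of 65 changed by 1 and 100% of 73 changed by 2 log2 units. The simulated noise was independent between genes, and many genes were changed at once. In the data only Babam1 passed, so the adjusted threshold was stricter there, and these shares can overstate what the fit could call. The alternatives were a replicate block, a variance trend, array weights, 2 scalings, 2 filters on dim genes, other thresholds and each array left out. Promoter windows are from RefSeq (GRCm38.p6). The scanner intensities were not analysed here.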

Additional observations from a re-analysis of the deposited data

How the results depend on the processing

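With 3 arrays per genotype, the fit on simulated data called 19.4% of genes changed by 0.58 log2 units, a size above every difference seen in the 41 genes. That share can overstate what the fit could call here, because many genes were changed in the simulation and its noise was independent between genes. Signal over background is not known from the deposited values. In every alternative 0 of the 41 genes passed the adjusted threshold of 0.05 in limma, and 0 at 0.1 and at 0.2; 1 to 8 had an unadjusted p under 0.05 with 1 array left out. Babam1 passed in each, at -4.06 to -3.85 with 1 array left out. The count of lower genes ranged from 29 to 34 and the median difference from -0.243 to -0.0887 with 1 array left out. The unadjusted count was 3 with a variance trend and robust fit, in place of 6. With replicate 2 as the only Merit40-/- array, an alternative chosen after seeing the data in which the WT arrays stand for its spread, 21 genes were lower, the median was -0.00409 and 2 had an unadjusted p under 0.05. In that setting 20 did not overlap, where 50.9% of all genes did not. Genes without overlap numbered 7 to 19 with 1 array left out, where 3 arrays meet 2 and 16.9% to 19.6% of all genes do not overlap. The differences of Bub3 (-0.0784 to 0.0819), Cenpj (-0.0164 to 0.127) and Dsn1 (-0.0419 to 0.455) changed sign with 1 array left out. Those of Incenp (-0.234 to 0.08) and Spc24 (-0.0839 to 0.434) did so too. With replicate 2 as the only Merit40-/- array, Bub1 (0.1005), Bub3 (-0.0041) and Incenp (0.2712) were reversed. The remaining alternatives fitted reversed none of the 18 genes named by rule. Without a test, the differences of Cenpc1, Cenpf, Cenpm, Cenpq, Cenpt, Cenpx, Mad1l1, Nuf2, Pmf1 and Zwint also changed sign with 1 array left out, and 16 of the 41 did with replicate 2 as the only Merit40-/- array. The list medians without single arrays were added after seeing the data. Same-numbered arrays did not deviate together over all genes (r of -0.0475, -0.00273 and 0.0439 over 23185 genes). Arrays with different numbers gave r of -0.0657 to 0.07. A pairing that affects only some genes cannot be seen in this way. With the replicate block 33 genes were lower, the median was -0.171, 5 had an unadjusted p under 0.05 and 0 passed.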
